A study of Mus musculus with 11 samples.

Results

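The lysosome breaks down material delivered by endocytosis and autophagy, and its enzymes work in an acid lumen. The genes described here are the soluble hydrolases, membrane proteins and transcriptional regulator of the lysosome together with the subunits of the vacuolar proton pump (V-ATPase) that acidifies it. Members were the genes whose symbol starts with Atp6v and the 23 genes of a fixed list, namely 10 peptidases (Ctsa, Ctsb, Ctsc, Ctsd, Ctsf, Ctsh, Ctsk, Ctsl, Ctsz and Tpp1), 6 glycosidases and the activator precursor Psap, and the membrane proteins and regulator Lamp1, Lamp2, Scarb2, Cln3, Mcoln1 and Tfeb. Of 46 candidates among 23337 gene symbols, 40 had at least 10 counts in at least 5 libraries and were kept, 17 of them V-ATPase subunits and 23 from the list. The count minimum used no difference between the groups, but the members were chosen with earlier results of these data known.

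The V-ATPase is a rotary machine. Its cytosolic V1 sector hydrolyses ATP, and its membrane-embedded V0 sector carries protons into the lumen through a ring of small proteolipids. Several subunits exist as isoforms from separate genes, some of which are widespread and some of which are known from acid-secreting cells of kidney, bone or inner ear. Transcription factor EB, encoded by Tfeb, is known to bind an E-box variant called the CLEAR element near many lysosomal genes. In the adrenal cortex the lysosome is also the compartment in which cholesteryl esters from lipoproteins are split before steroid synthesis.

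RNA sequencing was done on adrenal glands of male mice of the athymic strain Hsd:Athymic Nude-Foxn1nu, which lacks a functional thymus and so most T cells. All mice, including the controls, had been inoculated with VCaP cells, an established human prostate cancer line that carries the androgen receptor, at 5 to 6 weeks of age (week 0). They were assigned at week 7 to stay intact or to be orchectomized (removal of the testes, labelled ORX) and were killed at week 15. The comparison is between 5 intact and 6 ORX libraries and asks how the adrenal gland of these inoculated mice differs without the testes. A direct effect of the removal and one by way of the inoculated cells cannot be told apart in this design. The labels do not say that each library came from its own mouse, so p-values describe the spread between these libraries, which may in part be technical.

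Total counts ran from 11368447 to 15029582 per library, and the 40 members together held 0.944% of all counts. After the filter on low counts 14139 genes were tested with edgeR's quasi-likelihood test. Of these, 878 (6.21%) passed an adjusted p of 0.05 (Benjamini-Hochberg over all tested genes). Markers of the gland were present in every library. Summed X-zone markers, from the inner cortical zone that regresses in male mice, were 28.7 to 40.2 CPM (counts scaled by the TMM-normalised size of the library) in intact and 831 to 2910 CPM in ORX libraries, and summed medulla markers were 13600 to 33000 CPM in intact and 7630 to 18700 CPM in ORX libraries. In whole glands fewer cells of a type and less RNA per cell cannot be told apart. Library ORX 6 stood apart from the other ORX libraries in a way that touches several members, as described with the transcript lengths.

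The E-box CACGTG, the core of the CLEAR element, was looked for near the transcription start sites of the members. RefSeq promoter windows (GRCm38.p6, 250 bases before to 50 bases after a start) were found for 32 of the 40 members. CACGTG, which reads the same on both strands, occurred in 14 of these 32 genes (43.8%), against 11.5% of 10038 tested genes and 8.09% of 27025 genes with a window. The longer form TCACGTGA, also palindromic and containing CACGTG, occurred in 8 members (25%), against 2.1% of tested genes and 1.12% of all. These 8 were Atp6v0d1, Atp6v0e, Atp6v1a, Cln3, Ctsa, Ctsd, Gla and Mcoln1. A match is a run of letters and not a measured binding site. These stretches are shown because they hold the matches entirely before the annotated gene start in a membrane protein gene (Lamp1) and in the glycosidase genes Gla, Gaa and Glb1. Capitals mark CACGTG or, where present, TCACGTGA, and each stretch is written 5′ to 3′ on the strand of its gene. They lie at chr8:13159070-13159160 (plus strand), chrX:134601164-134601255 (minus strand), chr11:119267793-119267858 (plus strand) and chr9:114401000-114401065 (plus strand).
Lamp1: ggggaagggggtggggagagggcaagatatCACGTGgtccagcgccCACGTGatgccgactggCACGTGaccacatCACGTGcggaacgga
Gla: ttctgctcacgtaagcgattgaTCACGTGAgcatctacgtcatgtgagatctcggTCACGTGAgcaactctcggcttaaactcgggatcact
Gaa: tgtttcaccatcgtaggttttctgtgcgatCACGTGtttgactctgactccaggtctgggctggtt
Glb1: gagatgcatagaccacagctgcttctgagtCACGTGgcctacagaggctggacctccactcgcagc

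Lamp1 had 4 copies of CACGTG between 61 and 15 bases before its start, and Gla had 2 copies of the longer form, whose CACGTG cores begin 227 and 194 bases before its start. The members with CACGTG had a median log2 fold change of 0.02 between ORX and intact (n = 14, none past the threshold). The members with a window without CACGTG had a median of 0.07 (n = 18, 1 past the threshold). The windows of Atp6v0e2 and Tfeb held no CACGTG, and that of Ctsl held 1, at 236 bases before the start. The medians of members with and without the E-box are given as a description.

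The members were among the more abundant genes of the gland. On the scale of CPM per kilobase of the principal transcript, the median member lay at the 88.4th percentile of tested genes, and 19 of 40 lay above the 90th. Cathepsin D (Ctsd), an aspartic protease, was the highest with a mean of 588 CPM per kilobase over the 11 libraries. Psap, the precursor of the saposins that present sphingolipids to their hydrolases, followed at 474, cathepsin B (Ctsb, a cysteine protease) at 401 and Lamp1, the main glycoprotein of the lysosomal membrane, at 312. Lamp1 was 1.97 times the next gene, Ctsf, at 159 CPM per kilobase, whereas Ctsf, Atp6v1e1 (157) and Atp6v0b (154) were closer to each other than their SDs between libraries.

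**Figure D1:**
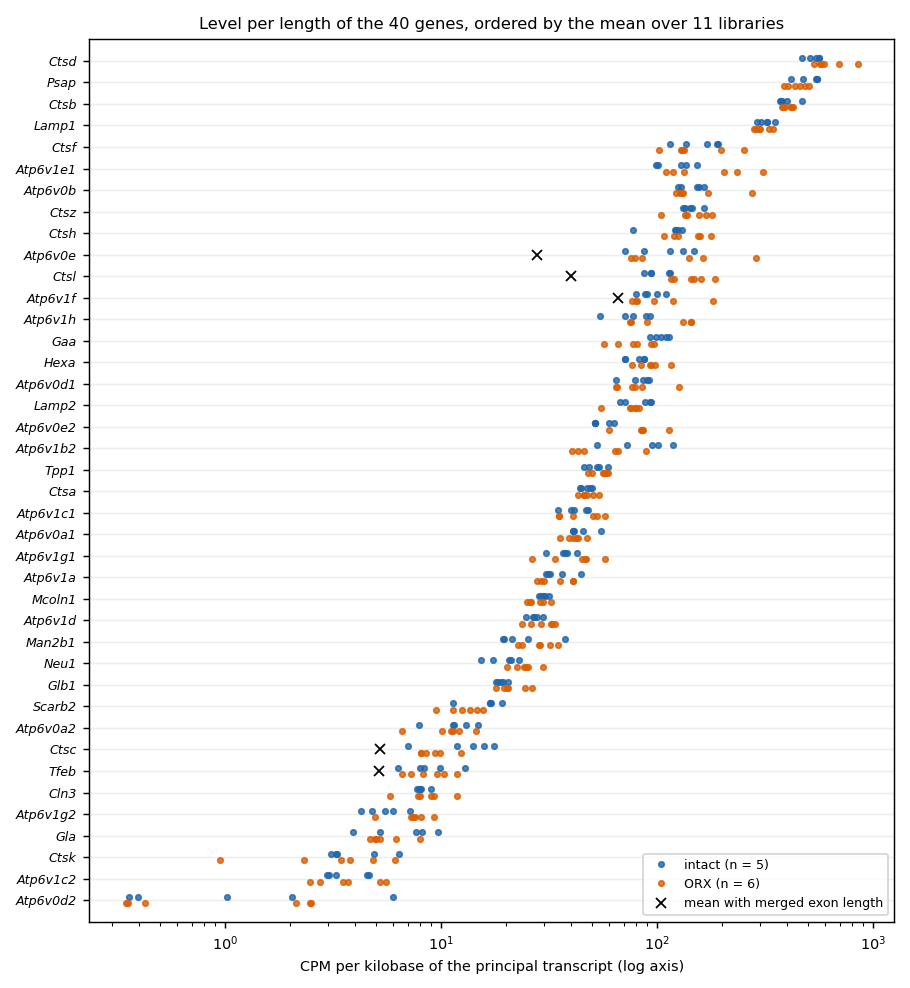
Level of each of the 40 genes in every library, as CPM per kilobase of the principal transcript on a log axis, with intact libraries in blue (n = 5) and ORX libraries in orange (n = 6); crosses mark the mean where the merged exon length would change it by more than 1.5 times. Ctsd, Psap, Ctsb and Lamp1 have the highest means, and Atp6v0d2 has the lowest at 1.64. In ORX 6, Atp6v1e1 (309.5) and Atp6v0e (288.2) reach the range of Lamp1, which has 280.1 in ORX 1.

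The lowest kept members were Ctsk (3.86 CPM per kilobase), a cathepsin known from osteoclasts, Atp6v1c2 (3.79) and Atp6v0d2 (1.64), which are restricted isoforms of pump subunits. Tfeb itself was at 9.03. The order depends on the length used. Dividing by all merged exons in place of the principal transcript lowered Atp6v0e from 126 to 28, Ctsl from 125 to 40, Ctsc from 11.2 to 5.22, Tfeb from 9.03 to 5.16 and Atp6v1f from 100.1 to 66.2 CPM per kilobase, and no other member moved by over 1.5 times.

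The 6 candidates that were not kept were all V-ATPase symbols. The a4, B1 and G3 subunit genes, known from acid-secreting cells, had 29 counts (Atp6v0a4), 2 counts (Atp6v1b1) and 0 counts (Atp6v1g3) over all 11 libraries, and Atp6v1e2, known from testis, had 1. Summed kidney tubule markers were 0.287 to 3.58 CPM, with Umod and Foxi1 at 0. Atp6v0c, which encodes the main proteolipid of the proton-carrying ring, had only 1 count in all. A copy listed as Atp6v0c-ps2 shares 32.3% of the 50-base stretches of the Atp6v0c transcripts and had 0 counts. Whether shared sequence or the annotation used for counting set the low count of Atp6v0c was not tested, so that value is not a measure of its expression.

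Few of the 40 members passed the threshold between intact and ORX glands. Of the 40 members 1 rose, Atp6v0e2 (2.5%, against 3.03% of all tested genes that were higher), and 0 fell (against 3.18% of all tested genes that were lower), by edgeR's quasi-likelihood test. At an unadjusted p under 0.05 there were 8 members (20%, against 22.9% of all tested genes), 5 higher and 3 lower in ORX. With DESeq2, Ctsl was called in addition (2 members, 5%, against 11.5% of all tested genes). With limma voom, Ctsl was called as higher and Atp6v1b2 and Gaa as lower (4 members with Atp6v0e2, 10%, against 14.5% of all tested genes). All of these shares were near or below the background of the same tool.

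The estimated differences of members were small in both directions. Their log2 fold changes ran from -0.60 to 0.62, with 24 above and 16 below 0 and a median of 0.05, where the median of all tested genes was 0.01. No member differed by more than 1.54-fold. The 95% interval lay wholly within a 1.5-fold difference for 19 members (47.5%, against 30.7% of all tested genes) and within a 2-fold difference for 35 (87.5%, against 68.8%). For the 5 others, Atp6v0d2, Atp6v0e, Atp6v1b2, Atp6v1e1 and Ctsk, the interval reaches past a 2-fold difference.

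**Figure D2:**
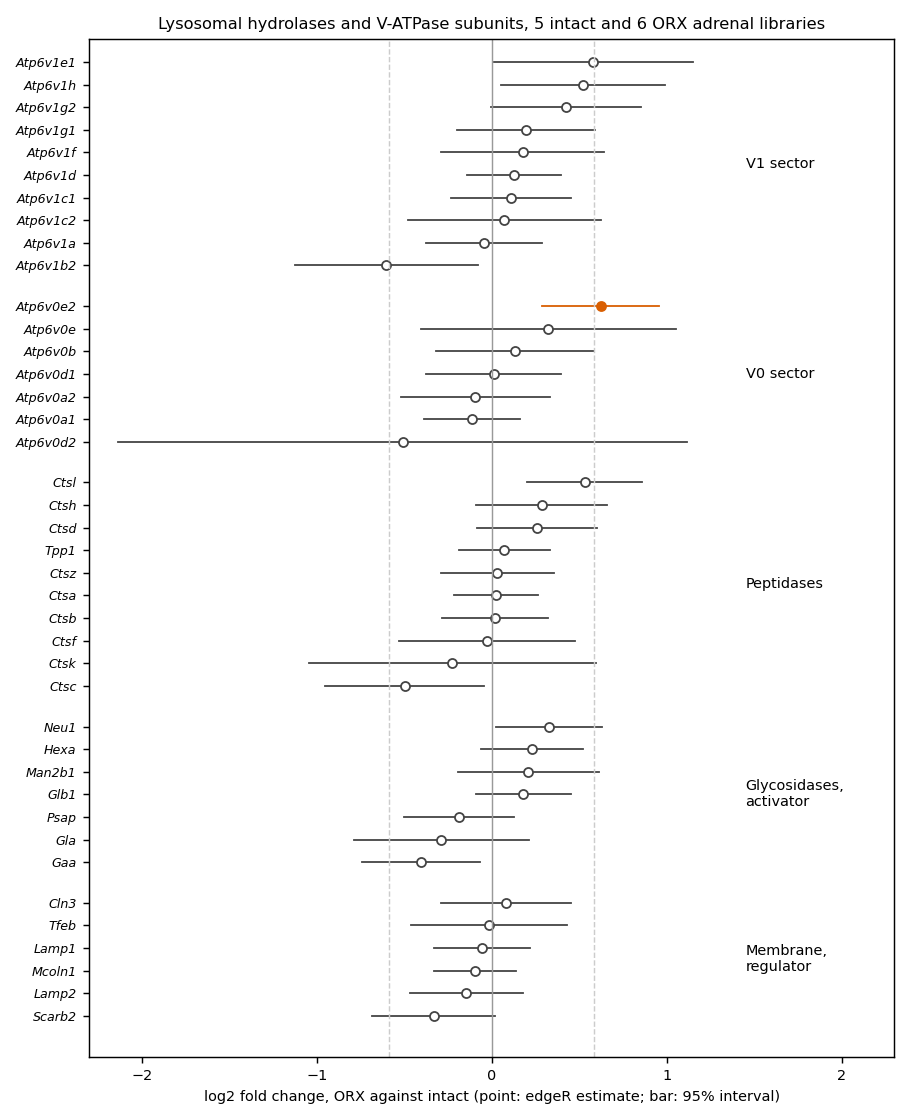
Log2 fold change of ORX against intact for the 40 genes by functional group, with points for the edgeR estimate and bars for its 95% interval; dashed lines mark a 1.5-fold difference and the filled orange point is past an adjusted p of 0.05. Atp6v0e2 is the only filled point, at 0.62, and the interval of Atp6v0d2 is the widest.

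The single call was in the V0 sector. Atp6v0e2 (chr6:48537615-48541801, plus strand, GRCm38) encodes the e2 isoform of a small hydrophobic subunit of the membrane sector. Its CPM in the intact libraries 1 to 5 were 92.8, 92.5, 113, 108 and 92.8, and in the ORX libraries the lowest was 107, the median 153 and the highest 204. The ORX libraries were higher except ORX 3, at 107, which lay within the intact range, so the groups overlapped. The log2 fold change was 0.62 ± 0.15 (SE), with a 95% interval of 0.29 to 0.95, and the adjusted p was 0.0312 with edgeR's quasi-likelihood test.

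The call for Atp6v0e2 sat close to the threshold. It was lost when any 1 of 7 libraries was left out (intact 1, 2 or 5, ORX 1, 2, 4 or 5), with an adjusted edgeR p of up to 0.0888, while the log2 fold change stayed between 0.52 and 0.71. It was also lost against a minimum change of 1.5-fold. Markers of several cell types moved in the same comparison. All 3 X-zone markers and 3 of 10 adrenal cortex markers (Mc2r, Hsd3b1 and Cyp21a1) rose, while 3 of 15 medulla markers, 3 of 10 glia and neuron markers (Tubb3, Nefm and Nefl) and 1 of 9 capsule and stroma markers fell. Cortex markers did not move as a class. Their estimates were above 0 for 6 and below 0 for 4, the lowest being Scarb1 at -1.15 (adjusted edgeR p 0.127). Summed cortex markers were 37000 to 81300 CPM in intact and 63300 to 97100 CPM in ORX libraries, and summed glia and neuron markers were 104 to 154 and 67 to 107 CPM. Their part in the difference of Atp6v0e2 was not tested.

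Its isoform partner Atp6v0e (chr17:26663231-26699647, plus strand), the widespread e1 form, had 71.6, 109, 122, 58.5 and 94.5 CPM in the intact libraries. In the ORX libraries the lowest was 62.7, the median 92.9 and the highest 237. The highest was ORX 6, and the other 5 ORX libraries lay between 62.7 and 134, about the intact range. The log2 fold change was 0.32 ± 0.34 (SE) with an adjusted edgeR p of 0.613, and it was -0.03 without ORX 6.

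Seen as a share of the 2 e isoforms per transcript length, Atp6v0e2 made up 34.4% ± 7.29 (SD, n = 5) in intact and 41% ± 9.61 (SD, n = 6) in ORX libraries. The ORX shares ran from 28.4% to 52.9% and the intact shares from 28.1% to 45.9%, so the shares overlapped broadly. With the merged exon length of Atp6v0e in place of its principal transcript these shares would be higher in both groups. The mean of Atp6v0e over all libraries would then be 28 in place of 126 CPM per kilobase, below the 72.2 of Atp6v0e2. Which of the 2 forms is the more abundant therefore depends on the length used. Other isoform shares were close between the groups. Atp6v0a2 was 20.7% ± 3.79 and 20.9% ± 4.08 of the a1 and a2 pair, Atp6v1c2 was 8.16% ± 2.13 and 7.87% ± 2.09 of the C pair, and Atp6v1g2, a form known from neurons, was 13.1% ± 2.92 and 15.7% ± 6.01 of the G pair (intact then ORX, SD).

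The other V0 subunits showed no call. Atp6v0b, a proteolipid of the ring, had a log2 fold change of 0.13 and Atp6v0d1, which links the ring to the stalk, of 0.01. The proton-path subunits Atp6v0a1 and Atp6v0a2 were at -0.11 and -0.09. Atp6v0d2, known from osteoclasts, was at -0.51 with an interval of -2.13 to 1.12. Its CPM was 15.3 in intact 2 and between 0.88 and 6.34 in the 6 ORX libraries, so 1 intact library held the highest value.

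No subunit of the V1 sector passed the test, and 8 of 10 estimates were above 0 (median 0.15 on the log2 scale). Atp6v1b2 (chr8:69088646-69113711, plus strand), which encodes the B2 subunit of the catalytic head, had 204, 336, 269, 149 and 285 CPM in intact libraries. In ORX the lowest was 115, the median 155 and the highest 251. Intact 1 and 4 lay within the ORX range and the other 3 intact libraries were above it. The log2 fold change was -0.60 ± 0.24 (SE), with an adjusted p of 0.158 in edgeR and 0.036 in limma voom.

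Atp6v1h (chr1:5070018-5162529, plus strand), a regulatory subunit at the junction of both sectors, pointed the other way. It had 145, 190, 158, 112 and 181 CPM in intact libraries and a lowest value of 154, a median of 227 and a highest of 294 in ORX. ORX 1, 5 and 6 were above every intact library and ORX 2, 3 and 4 were inside the intact range. Its log2 fold change was 0.52 ± 0.22 (SE) with an adjusted edgeR p of 0.174. Its exons overlap those of Rgs20 on the opposite strand by 127 bases.

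Atp6v1e1, a stalk subunit, showed the same 3 ORX libraries on top, with ORX 1, 5 and 6 at 267, 307 and 406 CPM against 130 to 200 CPM in intact libraries. Its log2 fold change was 0.58 ± 0.26 (SE), with an adjusted edgeR p of 0.209, and 0.37 without ORX 6. The catalytic A subunit, Atp6v1a, had a log2 fold change of -0.04 with an interval of -0.37 to 0.29. The stalk and rotor genes Atp6v1c1, Atp6v1d, Atp6v1f and Atp6v1g1 were between 0.11 and 0.20. Atp6v1g2 was at 0.42 with an adjusted edgeR p of 0.224 and a mean of 8.46 CPM in intact and 11.4 CPM in ORX libraries, and Atp6v1c2 was at 0.07.

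**Figure D3:**
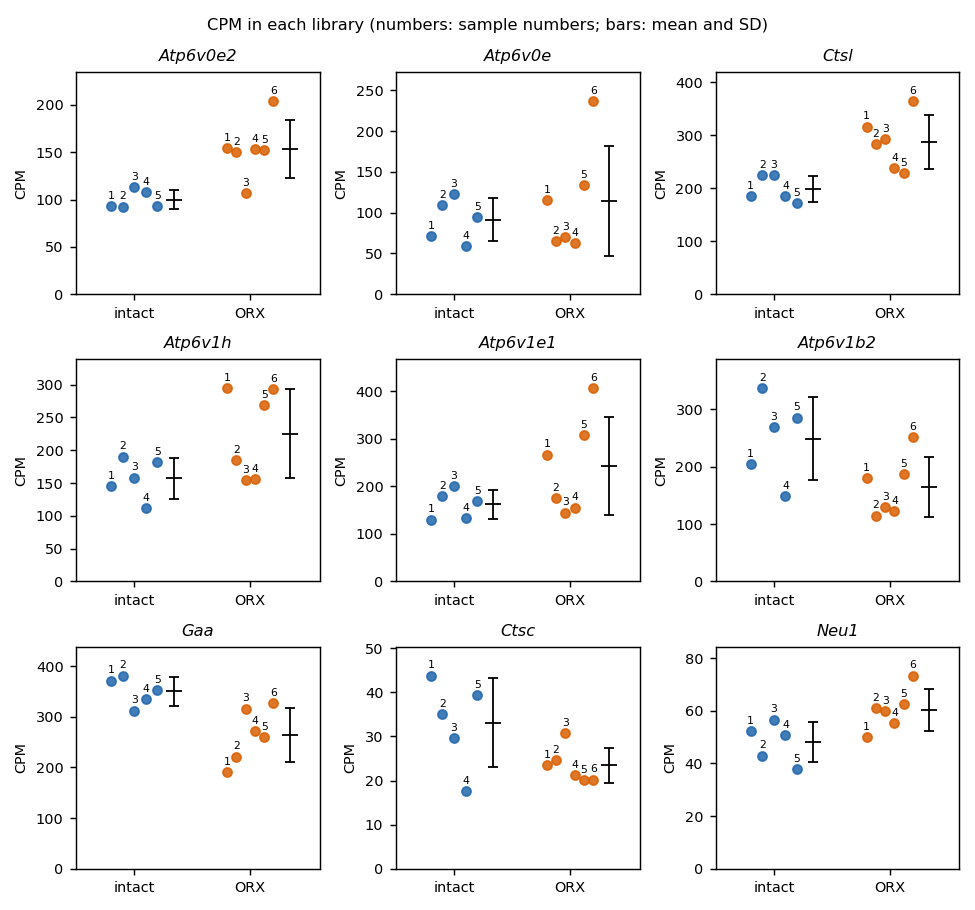
CPM of 9 genes in each intact (blue) and ORX (orange) library, with sample numbers beside the points and the mean and SD as bars; the genes are the 8 with an unadjusted p under 0.05 and Atp6v0e. Only Ctsl has no overlap between the groups, and ORX 6 is the highest library for Atp6v0e2, Atp6v0e, Ctsl, Atp6v1e1 and Neu1.

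Of the 10 peptidases none passed the test, and 7 estimates were above 0. Ctsl (chr13:64359337-64370890, minus strand) encodes cathepsin L, a cysteine endopeptidase of broad specificity. It had 186, 225, 225, 186 and 172 CPM in intact libraries and a lowest value of 229, a median of 288 and a highest of 365 in ORX. It was the only member without overlap between the groups (2.5% of members, against 5.28% of all tested genes).

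The log2 fold change of Ctsl was 0.53 ± 0.15 (SE), with a 95% interval of 0.20 to 0.86. Its adjusted p was 0.0558 in edgeR, 0.011 in DESeq2 and 0.0241 in limma voom, so the call depended on the tool. It was also past the threshold in edgeR when library totals replaced TMM factors (0.0494). Exons of the predicted genes Gm47123 on the opposite strand and Gm49230 on the same strand overlap those of Ctsl by 1742 and 395 bases. How strand was handled in the counting is unknown here, so reads of overlapping genes could not be assigned with certainty.

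Ctsc, the dipeptidyl peptidase that activates serine proteases of granules, had a log2 fold change of -0.50 ± 0.21 (SE) and an adjusted edgeR p of 0.179. Intact libraries held 43.8, 35.1, 29.7, 17.6 and 39.3 CPM and ORX libraries 20.1 to 30.8 CPM (median 22.4). Intact 4 was the lowest library of all, and without it the log2 fold change was -0.67 with an adjusted edgeR p of 0.0354.

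The abundant cathepsins differed little. Ctsb had a log2 fold change of 0.02 with an interval of -0.28 to 0.32, around 1887 ± 191 CPM in intact (SD, n = 5) and 1910 ± 98.3 CPM in ORX libraries (SD, n = 6). Ctsd was at 0.26 with 1129 ± 81.8 and 1351 ± 252 CPM, and 36.6% of its 50-base stretches are shared with the overlapping gene model Gm49369. The carboxypeptidases Ctsa and Ctsz were both at 0.03, the tripeptidyl peptidase gene Tpp1 at 0.07, Ctsf at -0.03, the aminopeptidase gene Ctsh at 0.29 and Ctsk at -0.23.

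None of the 7 genes for glycosidases and their activator passed the test either. Gaa (chr11:119267887-119285454, plus strand), the acid alpha-glucosidase that degrades lysosomal glycogen, had 371, 381, 312, 334 and 352 CPM in intact libraries. In ORX the lowest was 190, the median 266 and the highest 327. ORX 3 and 6 reached the intact range and the other 4 ORX libraries were below it. The log2 fold change was -0.40 ± 0.16 (SE), with an adjusted p of 0.144 in edgeR and 0.026 in limma voom.

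Neu1, the lysosomal sialidase, went the other way, with 48.1 ± 7.61 CPM in intact and 60.3 ± 7.84 CPM in ORX libraries (SD). Its log2 fold change was 0.33 ± 0.14 (SE) and its adjusted edgeR p was 0.186. Intact 3 (56.6 CPM) exceeded ORX 1 and 4, so the groups overlapped. Hexa, the alpha subunit of beta-hexosaminidase, was at 0.23 on the log2 scale, Man2b1, an alpha-mannosidase, at 0.21, and Glb1, the beta-galactosidase, at 0.18. Psap was at -0.19 with 1348 ± 161 and 1185 ± 120 CPM, and Gla, the alpha-galactosidase, was at -0.29.

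The membrane proteins showed the narrowest range, from -0.33 (Scarb2, which carries glucocerebrosidase to the lysosome) to 0.08 (Cln3). The 95% interval lay within 1.5-fold for 5 of these 6 genes. Lamp1 had 710.1 ± 52 CPM in intact and 683 ± 54.8 CPM in ORX libraries, a log2 fold change of -0.06 with an interval of -0.33 to 0.22. Lamp2, which also serves chaperone-mediated autophagy, was at -0.15, and Mcoln1, a calcium-releasing channel, at -0.10.

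Tfeb (chr17:47737030-47792419, plus strand) had 18.3, 14.5, 29.7, 22.6 and 19.1 CPM in intact libraries and a lowest value of 15.2, a median of 20.5 and a highest of 27.3 in ORX. The groups overlapped fully. The log2 fold change was -0.02 ± 0.21 (SE), with an interval of -0.46 to 0.43 and an adjusted edgeR p of 0.974. The interval lies within a 1.5-fold change in either direction. These are transcript levels, and the activity of TFEB is known to depend on where the protein is in the cell.

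Library ORX 6 is given separately because it was the highest ORX library for many members. The median member was 0.37 higher there than in the mean of ORX 1 to 5 on the log2 CPM scale, against -0.002 for all tested genes with a transcript length. The deviation followed transcript length, with a Spearman rho of -0.63 over the 40 members and -0.61 over 12847 tested genes. Genes of 1 library share its RNA and depth, so both are descriptions. A relation to length was not particular to ORX 6. Against the rest of the group, ORX 4 had a median of -0.31 over the 20 shorter members and 0.09 over the 20 longer ones. For ORX 6 these medians were 0.52 and 0.11.

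Short pump subunits were the highest in that library. Atp6v0e (823 bases) was 1.48 above the other ORX libraries on the log2 scale, Atp6v1f (703 bases) 1.02, Atp6v1e1 (1312 bases) 1.02 and Atp6v0b (1000 bases) 1.01. The longest, Atp6v0a2 (5345 bases), was at -0.83. Ctsk was an exception, at -2.01 with 1512 bases, and Atp6v0d2 was at -1.65 with 2539 bases.

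**Figure D4:**
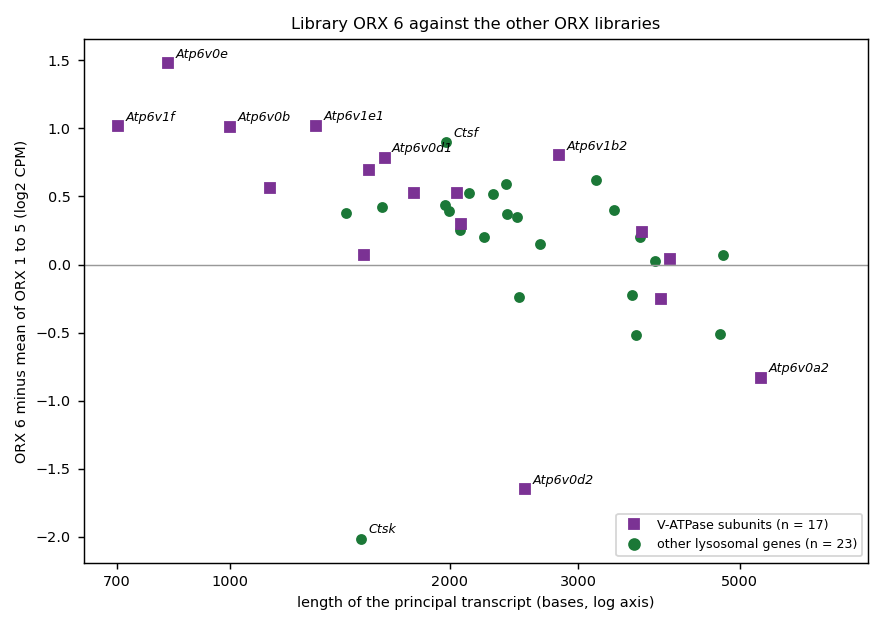
Difference of library ORX 6 from the mean of ORX 1 to 5 on the log2 CPM scale for each gene against the length of its principal transcript in bases on a log axis; squares are V-ATPase subunits (n = 17) and circles the other genes (n = 23). Short transcripts other than Ctsk (-2.01) lie above 0, up to 1.48 for Atp6v0e, and the Spearman rho is -0.63.

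The members' values without ORX 6 are therefore given beside those with it. Without that library 871 genes were called in all, 1 member was called, again Atp6v0e2 (log2 fold change 0.52, adjusted edgeR p 0.0364), and the median member was at -0.03 in place of 0.05. Atp6v0b was then at -0.09, Atp6v1f at -0.04, Atp6v0d1 at -0.15, Ctsl at 0.45 and Atp6v1b2 at -0.76. Whether RNA quality or another property of the library set this pattern was not tested.

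Genes of further lysosomal, autophagy and cathepsin inhibitor lists were called at about the share of all genes. From 9 lists of 159 symbols, 145 genes were tested, of which 9 rose and 2 fell in edgeR's quasi-likelihood test (7.59%, against 6.21% of all tested genes). Of the 9 that rose, 3 came from the inhibitor list, in which 6 genes were tested. None of 13 further V-ATPase proteins, such as the a3 subunit gene Tcirg1 and the accessory subunit genes Atp6ap1 and Atp6ap2, passed the test. Neither the difference between the lists and the members nor that between any lists was tested.

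Among hydrolases outside the 40 members, Lipa, the lysosomal acid lipase that splits cholesteryl esters, rose with a log2 fold change of 1.20 ± 0.21 (SE; adjusted edgeR p 0.00453). It was at 94 to 174 CPM in intact and 218 to 379 CPM in ORX libraries, without overlap. Ctso, a cysteine cathepsin of less studied function, rose by 0.96 ± 0.15 (adjusted edgeR p 0.00257), from 52 to 68.9 CPM in intact to 91.3 to 156 CPM in ORX libraries. Both calls held in each of the 11 fits that left out 1 library. Naglu, which removes N-acetylglucosamine from heparan sulfate, rose by 0.59 (adjusted edgeR p 0.03), but that call was lost in 7 of those 11 fits.

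The genes for cathepsin inhibitors gave 3 calls among 6 tested, all higher, where 3.03% of all tested genes were higher. This list was chosen with earlier results of these data known, so its share of calls is a description and no test. Serpinb1a, an inhibitor of granule serine proteases such as cathepsin G, rose by 5.23 ± 0.32 (SE) on the log2 scale with an adjusted edgeR p of 1.711e-06, from 2.42 to 7.66 CPM in intact to 111 to 251 CPM in ORX libraries. Serpinb6b rose by 0.84 and Serpinb6a by 0.79 (adjusted edgeR p 0.0141 and 0.0186). The cystatin genes Cst3 and Cstb, whose products inhibit cysteine cathepsins such as Ctsb and Ctsl, did not pass the test. Nor did Cst6, a further cystatin gene, at -1.03 (adjusted edgeR p 0.168) and a mean of 1.38 CPM in intact libraries.

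**Figure D5:**
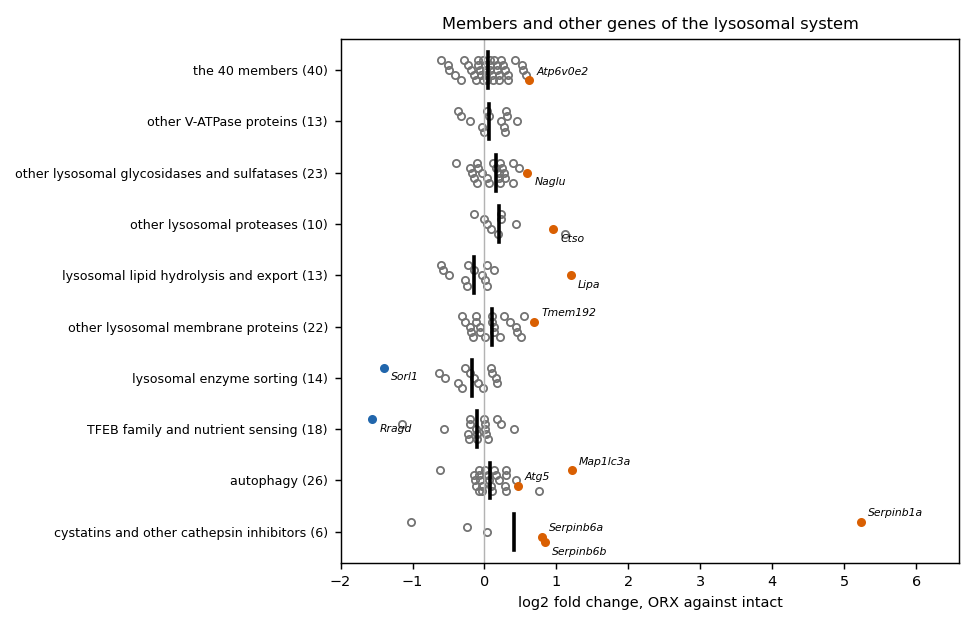
Log2 fold change of ORX against intact for the 40 members and for 9 further lists of lysosomal, autophagy and cathepsin inhibitor genes. The number tested is in brackets. Filled points are past an adjusted edgeR p of 0.05, open points are not past it, and black bars are medians. Serpinb1a lies farthest from 0 at 5.23, and Sorl1 and Rragd are the filled points below 0.

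Rragd, a Rag GTPase of the nutrient-sensing complex that recruits mTORC1 and TFEB to the lysosome, fell by 1.56 on the log2 scale (SE 0.28, adjusted edgeR p 0.00661). It was at 21.3 to 72.1 CPM in intact and 11.8 to 17 CPM in ORX libraries. Sorl1, a sorting receptor of the endosome, fell by 1.40 (adjusted edgeR p 0.0295), and that call was lost in 6 of the 11 fits that left out 1 library. Of the autophagy genes Map1lc3a, an LC3 homologue of the autophagosome membrane, rose by 1.21 (adjusted edgeR p 0.0255) and Atg5, of the LC3 conjugation machinery, by 0.46 (adjusted edgeR p 0.0393), calls that were lost in 4 and 9 of the 11 fits. Tmem192, a lysosomal membrane protein, rose by 0.69 (adjusted edgeR p 0.0305) and lost its call in 7.

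Cells rich in lysosomes could carry part of these levels. Of 15 macrophage markers none rose and 1 fell past the threshold (Cd14, log2 fold change -1.04). The estimates were nevertheless above 0 for 11 of the 15 and below 0 for 4, with a median of 0.13. The summed level of these markers was 409 to 892 CPM in intact and 550 to 1040 CPM in ORX libraries, with none at 0. Of 6 osteoclast-like markers 2 were tested, Acp5 and Nfatc1, and neither passed. The sums over all 6 were 104 to 224 CPM in intact and 71.1 to 177 CPM in ORX libraries. Most of each sum came from Acp5, with means of 120.5 CPM in intact and 79.5 CPM in ORX libraries. The markers other than these 2 did not pass the filter on low counts. Summed adipose markers were 5280 to 15900 CPM in intact and 3390 to 14500 CPM in ORX libraries. None of the 10 adipose markers passed the threshold, but all 10 estimates were below 0, with a median log2 fold change of -0.55. Of the 15 medulla markers 3 fell and none rose past the threshold. Their estimates were below 0 for 13 and above 0 for 2, with a median of -0.55. The part of these cell types in the members' values was not tested.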

How the data were processed

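The authors deposited a table of raw read counts per gene for 11 libraries, in 2 identical copies, of which the first was used. Subread 1.5.1, bcl2fastq 1.8.4 and build mm10 stand in the submitters' processing notes, without roles. Neither annotation nor strand setting was given in the sources used here, and the labels' protocols cite both a stranded and an unstranded Illumina guide. Counts were filtered with filterByExpr (minimum count 10), scaled by TMM and fitted without covariates by edgeR's quasi-likelihood functions (edgeR 4.0.16 under R 4.3.3), and p-values were adjusted over all tested genes. DESeq2 1.42.0, limma 3.58.1 (voom with sample weights), other scalings and filters, a 1.5-fold minimum, a replicate block and leaving out each library were alternatives. The code was tested on simulated data. CPM used TMM-scaled totals. Lengths and positions came from GENCODE (GRCm38) and promoters from RefSeq. The biological coefficient of variation was 30.2%, which limits what 5 against 6 libraries can show. Full values are given for called members, the isoform partner of a called subunit, the 4 next smallest p-values and Tfeb, with every member free to be named. Of each further list, up to 4 genes past the threshold are named. Members, lists and tests were chosen with earlier results of these data known.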

Additional observations from a re-analysis of the deposited data

Results flagged for a closer look

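In each group the highest or lowest library was compared with its neighbour by the gap as a share of the group's range (Dixon's ratio) on log2 CPM. Of 80 such groups (40 members in intact and in ORX), 3 were past the critical value (3.75%), and chance alone passes about 1 in 20. Ctsh was lowest in intact 3, with 126 CPM against 196 to 212 CPM in the other intact libraries (ratio 0.853). Lamp2 was lowest in ORX 6, with 198 CPM against 271 to 299 CPM in the other ORX libraries (ratio 0.764). Scarb2 was lowest in intact 2, with 53.2 CPM against 79.2 to 89.7 CPM in the other intact libraries (ratio 0.763). None of these members was past the threshold between the groups.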

How the results depend on the processing

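Across 800 refits of single members, 721 kept sign and side of the threshold, 64 changed sign with no call on either side, 9 lost a call and 6 gained one. The 15 members with a sign change had main values of at most 0.508 in size on the log2 scale, and 25 members had none. Of all tested genes, 878 in the main analysis, DESeq2 called 1630, limma voom 2056, a threshold of 0.01 260 and a test against 1.5-fold 174, and leaving out 1 library gave 408 to 1280 calls. Higher members numbered 2 with library totals, 2 with DESeq2 and 2 with limma voom, 0 at 0.01 and 0 against 1.5-fold, and 0 to 1 without 1 library. Lower members numbered 2 with limma voom and 0 to 1 without 1 library. Ctsc was the lower member called, without intact 4. In the further lists (9 higher, 2 lower; alternatives chosen after seeing the data) limma voom called 15 higher and 8 lower, DESeq2 5 lower, the threshold of 0.01 3 higher and 1 lower, the test against 1.5-fold 1 higher and 1 lower, and leaving out intact 3 and ORX 6 together gave 5 lower. Leaving out 1 library gave 4 to 12 higher (4 without intact 5, 5 without intact 1 or ORX 5) and 1 to 6 lower (6 without ORX 3, 4 without intact 3).

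The labels do not say whether sample numbers pair the libraries. Same-numbered libraries correlated at -0.247, -0.12, -0.207, 0.158 and 0.163 in their deviations from the group means. Of 5 intact libraries 1 correlated best with its own number. So few pairs cannot show that a pairing is absent. With the number as a replicate block, 416 genes were called, 0 members higher (Atp6v0e2 0.516, adjusted edgeR p 0.129), and 4 higher and 1 lower in the further lists, where Naglu, Tmem192, Sorl1, Rragd, Map1lc3a, Atg5 and Serpinb6b lost their calls. The block changed signs at Atp6v0a2 (0.036), Atp6v0b (-0.093), Atp6v0d1 (-0.149), Atp6v0e (-0.048), Atp6v1c2 (-0.079), Atp6v1f (-0.058), Cln3 (-0.045), Ctsa (-0.01) and Ctsz (-0.047).

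Other sign changes were as follows, with Atp6v0d2 the member that moved farthest (main value -0.508, and 0.521 without intact 2). limma voom gave Atp6v0b -0.047, Atp6v0d1 -0.151, Atp6v0d2 0.231, Atp6v0e -0.01, Atp6v1f -0.028, Ctsb -0.001 and Ctsz -0.056. Testing without a filter gave Atp6v0d1 -0.01. Library totals, which moved the median of all genes to 0.054, gave Atp6v1a 0.007, Ctsf 0.021 and Tfeb 0.007. Leaving out intact 3 and ORX 6 together gave Atp6v0b -0.049, Atp6v0d1 -0.13, Atp6v1c2 -0.13, Cln3 -0.001, Ctsa -0.04, Ctsb -0.001, Ctsk 0.166, Ctsz -0.066 and Tfeb 0.041. Without 1 library the ranges were Atp6v0a2 -0.218 to 0.018, Atp6v0b -0.088 to 0.186, Atp6v0d1 -0.151 to 0.059, Atp6v0d2 -0.787 to 0.521, Atp6v0e -0.026 to 0.436, Atp6v1a -0.113 to 0.058, Atp6v1c2 -0.056 to 0.172, Atp6v1f -0.045 to 0.241, Cln3 -0.03 to 0.173, Ctsa -0.009 to 0.049, Ctsb -0.018 to 0.081, Ctsf -0.21 to 0.072, Ctsz -0.033 to 0.104 and Tfeb -0.123 to 0.135. The causes were not tested. Depth limits the low members most, such as Atp6v0d2 with 11 to 180 counts per library.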
